A study of Mus musculus with 9 samples.

Results

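The enzymes that build purine and pyrimidine nucleotides, the units of RNA and DNA, were followed through 35 genes in mouse CD8+ T cells. The genes were taken by symbol from a list of de novo synthesis, salvage and deoxynucleotide enzymes, by a rule that uses no measured value. The list itself was chosen with earlier results of these data known. All 35 were present among the 48709 genes of the deposited table, and all 35 were among the 11971 genes that passed the filter on low values. RNA was sequenced from 9 libraries in 3 groups of 3. The control cells had no OVA peptide, a fragment of chicken ovalbumin used as a model antigen. The OVA cells had OVA peptide, and the OVA plus citraconate cells had OVA peptide together with citraconate, a small dicarboxylic acid closely related to itaconate. Mouse strain, genotype, age, peptide dose, citraconate dose and time in culture are not stated in the labels, and no group had citraconate without peptide. The extraction protocol names the cells of 8 libraries "PAS-T", which the labels do not define, and those of OVA plus citraconate replicate 1 as OVA-stimulated. Nothing states that replicates came from separate cultures or animals, so p-values measure the spread between these libraries, which may be technical.

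A cell makes nucleotides either from small precursors (de novo synthesis) or by recapturing bases and nucleosides (salvage). Both routes draw on phosphoribosyl pyrophosphate (PRPP), the activated ribose to which bases are attached. Ribonucleotide reductase then turns ribonucleotides into the deoxynucleotides used for DNA, and SAMHD1 breaks deoxynucleotides down again. T cells that have met antigen are known for switching on these pathways before they divide.

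Levels are in TPM, a share of each library's transcripts that is scaled by gene length, so levels of different genes can be set side by side. Each library held 14754470 to 17384330 reads, as worked back from the deposited values, and the genes described here had between 163 (Dguok) and 9131 (Samhd1) reads in a library. Differences were tested with limma on log2(TPM + 1), which slightly understates the change of low genes, and a gene was called when its Benjamini-Hochberg adjusted p over all tested genes was under 0.05. Folds and percentages below are ratios of group mean TPM. Markers of the labelled cells were present in every library: the summed level of Cd8a and Cd8b1 was 795.5 to 833.7 TPM in control, 228.7 to 397.8 TPM in OVA and 591.7 to 714.7 TPM in OVA plus citraconate. Cd4 was at 2.36 to 3.11 TPM in control and at or under 1.6 TPM in the peptide groups. The 4 B cell markers summed to 13.5 to 15.3 TPM in control, 0.422 to 1.17 TPM in OVA and 0 to 0.578 TPM in OVA plus citraconate, with Cd79b lower in both peptide groups (adjusted p = 9.17e-07 and 1.06e-06). The 3 natural killer cell markers (Ncr1, Klrb1c, Tyrobp) summed to 1.42 to 2.44 TPM in control, 681.3 to 1072 TPM in OVA and 118.1 to 207.2 TPM in OVA plus citraconate. Ncr1 was listed at 0 in all 3 control libraries. Of the 5 general T cell markers, Cd3d, Cd3e, Cd3g and Cd2 were at 36.9%, 36.5%, 26.9% and 26.9% of control in OVA, all called, while Thy1 was at 2662 TPM in control and 2736 TPM in OVA (adjusted p = 0.569). With citraconate Cd3d, Cd3e, Cd3g and Cd2 were at 84.6%, 91.2%, 73.8% and 54.7% of control. The myeloid markers summed to 4.02 to 8.28, 12.2 to 14.1 and 10.99 to 17.8 TPM, nearly all of it Cd68, which was higher in both peptide groups than in control (adjusted p = 0.00216 and 0.00152), and the erythroid markers to at most 3.42 TPM in any library. The part of these markers in the results below was not tested. In bulk RNA, fewer cells of a type and less RNA per cell cannot be told apart.

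With OVA peptide, 6 of the 8 steps held both genes that were called higher and genes that were called lower than in control. CTP synthase 1 (Ctps), the nucleoside diphosphate kinases Nme1 and Nme2, and the purine enzyme Gart were 1.65- to 2.14-fold higher than in control. All 6 nucleoside salvage kinases among the 35 genes fell, as did 4 of the 5 deoxynucleotide genes. These 5 deoxynucleotide genes include Samhd1, which breaks deoxynucleotides down and was at 16.7% of its control level. Over the 35 genes, 13 were called higher, 17 lower and 5 did not pass. The 30 calls were 85.7% of the genes, beside 71.9% of all tested genes called in that comparison (32.1% higher and 39.8% lower) by the same rule. The median absolute change was 0.48 on the log2 scale, as for all tested genes (0.48). Rescaling the libraries by the median of ratios gave 16 higher and 15 lower, beside 36.8% and 35.8% of all tested genes. Calls with a fitted log2 change of at least 1 (2-fold) were few: Ctps higher, and Samhd1, Ctps2 and Dck lower, which is 4 of 35 beside 21.5% of all tested genes.

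When citraconate was added to OVA peptide, 11 of the 35 genes were called higher than with OVA peptide alone, 13 lower and 11 did not pass. The 24 calls were 68.6% of the genes, beside 59.0% of all tested genes (37.8% higher and 21.2% lower). The largest differences were a fall of Impdh1 to 40.9% of its OVA level, and rises of Samhd1 to 2.5-fold and of Ctps2 to 2.08-fold. In this comparison the median of all tested genes lay 0.12 above 0 on the log2 scale, a shift that median-of-ratios scaling removed. Log2 changes of OVA plus citraconate against OVA are therefore given below relative to that median, while percentages, folds and p-values are those of the unshifted values. Log2 changes against control are unshifted, with medians of all tested genes at -0.08 for OVA and 0.04 for OVA plus citraconate. The log2 changes of a gene therefore do not add up across comparisons. Under that scaling 8 genes were called higher and 17 lower, beside 29.1% and 30% of all tested genes. Calls of at least 2-fold on the fitted log2 scale were those of Samhd1 and Impdh1, beside 12.0% of all tested genes.

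Against control, OVA plus citraconate had 8 of the 35 genes higher, 15 lower and 12 not passed. These 23 calls were 65.7% of the genes, beside 59.4% of all tested genes (33.1% higher and 26.3% lower), and median-of-ratios scaling gave 5 higher and 16 lower, beside 30.2% and 29.2%. Samhd1 and Impdh1, both lower, were the calls of at least 2-fold, beside 12.7% of all tested genes. Leaving out the abundant granzyme genes before rescaling gave 11 higher and 13 lower. Without OVA plus citraconate replicate 3 the genes called higher numbered 4. The 2 comparisons with OVA share the OVA libraries and the 2 with control share the control libraries, so their changes are not independent of one another. Libraries of the compared groups did not overlap for 30 genes in OVA against control, 23 in OVA plus citraconate against OVA and 25 in OVA plus citraconate against control, beside 75.0%, 66.1% and 67.4% of all tested genes.

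**Figure D1:**
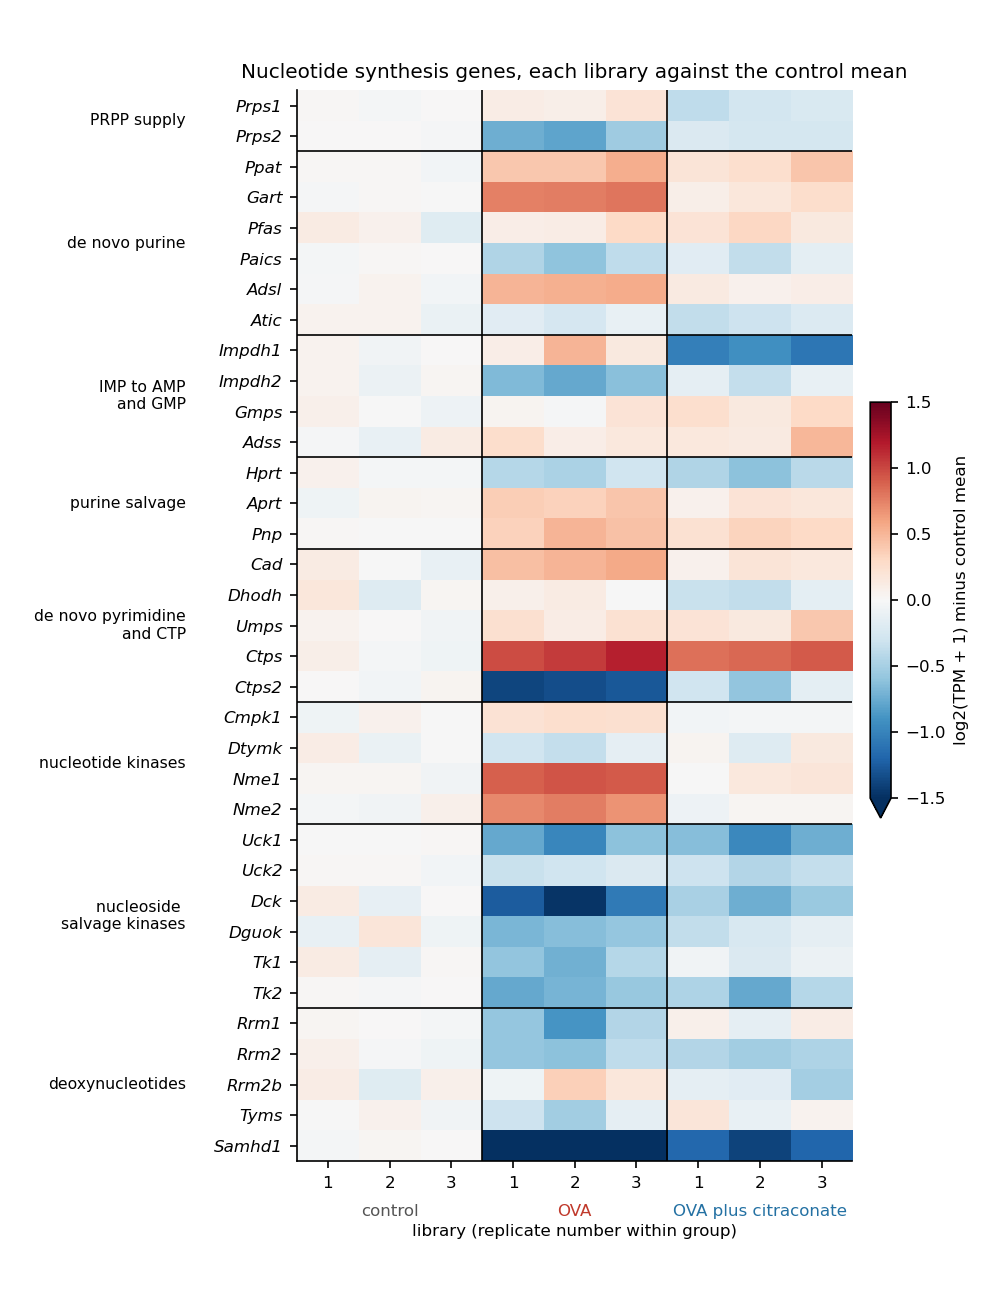
Each row is 1 of the 35 genes, each column 1 of the 9 libraries, and the colour is log2(TPM + 1) minus the mean of the 3 control libraries, cut off at 1.5 either way. The nucleoside salvage kinases and most deoxynucleotide genes are blue in the 3 OVA libraries, Ctps, Nme1, Nme2 and Gart are red there, and Impdh1 is blue in the 3 OVA plus citraconate libraries.

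**Figure D2:**
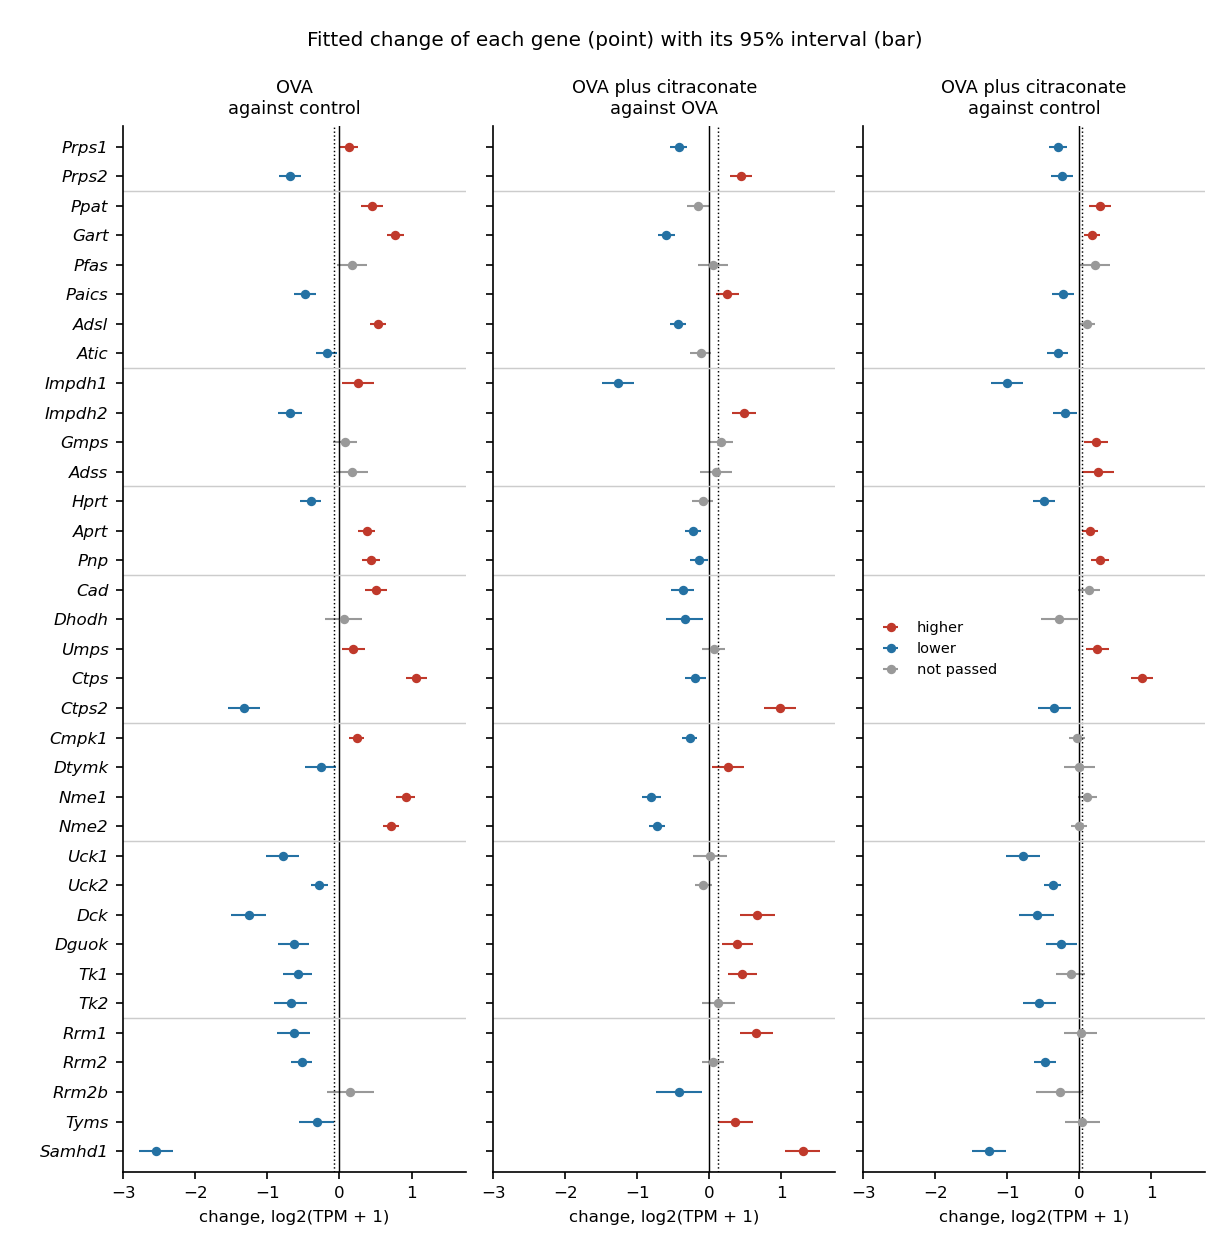
Fitted log2(TPM + 1) change of each gene (point) with its 95% interval (bar) in the 3 comparisons, unshifted, coloured by call, and a dotted line at the median of all tested genes. In OVA against control Samhd1 lies farthest to the left at -2.55 and Ctps farthest to the right at 1.07.

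The supply of PRPP rests on the PRPP synthetases Prps1 and Prps2, which catalyse the same reaction and went different ways with OVA peptide. Prps2 was at 53.5, 53.3 and 52.8 TPM in the control libraries, 31.7, 30.3 and 36.4 TPM in OVA and 45.8, 44.1 and 44.3 TPM in OVA plus citraconate. The 3 groups did not overlap: OVA was lowest and OVA plus citraconate lay between. Prps2 fell to 61.6% of control with OVA peptide (log2 change -0.69 ± 0.07 SE, adjusted p = 8.14e-06), was 1.36-fold higher with citraconate than with OVA alone (0.32 ± 0.07, adjusted p = 0.000351), and remained below control at 84.1% (adjusted p = 0.01).

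Prps1 was at 78.2, 75.8 and 77.5 TPM in control, 83.5, 81.9 and 88.9 TPM in OVA and 59.2, 63.6 and 65.6 TPM in OVA plus citraconate. Here OVA plus citraconate was the low group, at 74.1% of OVA (-0.55 ± 0.05, adjusted p = 0.000121) and 81.4% of control (adjusted p = 0.00108). The rise in OVA over control was small, 1.10-fold at an adjusted p of 0.0495, and did not pass in 7 of the 9 fits that left out 1 library: each control library, OVA replicates 1 and 3, and OVA plus citraconate replicates 2 and 3 (adjusted p 0.0511 to 0.161). The ratio of Prps1 to Prps2 was 1.42 to 1.47 in control, 2.44 to 2.70 in OVA and 1.29 to 1.48 in OVA plus citraconate. A near-identical gene, Prps1l3, was listed at 59.6 TPM in control, 47.6 TPM in OVA and 51.4 TPM in OVA plus citraconate, and how reads were divided between it and Prps1 is not known. The 2 partner proteins of the synthetases, Prpsap1 and Prpsap2, both rose with OVA peptide, from 44.6 to 49.7 TPM and from 26.3 to 36.5 TPM, and were at 60.9 and 38.4 TPM with citraconate, where only Prpsap1 differed from OVA by the test (adjusted p = 0.000830, and 0.469 for Prpsap2).

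De novo purine synthesis builds inosine monophosphate (IMP) on PRPP in a chain of steps that 6 of the genes encode: Ppat, Gart, Pfas, Paics, Adsl and Atic. With OVA peptide 3 of them rose, 2 fell and Pfas did not pass. Gart, a trifunctional enzyme of the early steps, was at 74.8, 76.4 and 75.3 TPM in control, 128.6, 129.2 and 131.9 TPM in OVA and 80.1, 85.4 and 91.0 TPM in OVA plus citraconate. All 3 OVA libraries stood well above the other 6. Gart was 1.72-fold higher in OVA than in control (0.78 ± 0.05, adjusted p = 6.48e-07) and fell to 65.8% of OVA with citraconate (-0.72 ± 0.05, adjusted p = 1.81e-05). Its level with citraconate was 1.13-fold that of control (adjusted p = 0.0155), a call lost without OVA plus citraconate replicate 3 (adjusted p = 0.0624) and under median-of-ratios scaling.

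Adsl, adenylosuccinate lyase, which acts both in this chain and in the branch to AMP, had the same order of levels. It was at 49.1, 51.4 and 48.2 TPM in control, 71.1, 72.3 and 73.5 TPM in OVA and 54.6, 52.0 and 53.2 TPM in OVA plus citraconate. The rise with OVA peptide was 1.46-fold (0.54 ± 0.05, adjusted p = 4.62e-06), and the level with citraconate was 73.7% of OVA (-0.56 ± 0.05, adjusted p = 5.91e-05). Against control the citraconate group did not pass (1.08-fold, adjusted p = 0.0949), although the libraries did not overlap. Adsl was called higher there with the granzyme genes left out and by voom on the recovered reads.

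Paics, a bifunctional enzyme of the middle steps and the most abundant transcript of this chain, went the opposite way. It was at 240.3, 247.2 and 246.4 TPM in control, 179.3, 160.9 and 187.0 TPM in OVA and 218.1, 189.5 and 220.5 TPM in OVA plus citraconate. OVA was the low group, at 71.8% of control (-0.48 ± 0.07, adjusted p = 0.000154). With citraconate Paics was 1.19-fold its OVA level (0.13 ± 0.07, adjusted p = 0.0118, not called with the median of ratios) and 85.6% of control (adjusted p = 0.0190). The last of these did not pass without control replicate 2, control replicate 3 or OVA plus citraconate replicate 2 (adjusted p 0.0536 to 0.0621).

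Ppat, the amidotransferase that commits PRPP to purines, rose while Paics fell, although the 2 genes start head to head. Its mean was 42.1 ± 1.07 TPM (SD, n = 3) in control, 57.9 ± 3.52 in OVA and 51.7 ± 4.20 in OVA plus citraconate. The increase with OVA peptide was 1.38-fold (0.45 ± 0.07, adjusted p = 0.000190), and OVA plus citraconate was 1.23-fold above control (adjusted p = 0.00479). The difference between the 2 peptide groups did not pass (89.3% of OVA, adjusted p = 0.0662), but passed without OVA plus citraconate replicate 3 (adjusted p = 0.0206) and with the median of ratios. The ratio of Paics to Ppat was 5.64 to 6.03 in control, 2.89 to 3.20 in OVA and 3.76 to 4.52 in OVA plus citraconate, with no overlap between groups. RefSeq places the 2 genes on opposite strands with 277 shared bases, and whether the counting used strand is not stated.

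Atic, which carries out the closing steps to IMP, fell to 88.2% of control with OVA peptide (adjusted p = 0.0329) and to 81.0% with citraconate as well (adjusted p = 0.00292). The smaller of these changes was lost without either of control replicates 1 and 2 or either of OVA replicates 1 and 2 (adjusted p 0.0648 to 0.108), and with the median of ratios. Pfas, which makes the formylglycinamidine intermediate, was at 17.7 to 22.1 TPM in control, 21.8 to 25.1 TPM in OVA and 22.6 to 25.3 TPM in OVA plus citraconate and did not pass in any comparison (adjusted p 0.131, 0.659 and 0.0675), although median-of-ratios scaling called it higher in OVA than in control and it passed with citraconate against control without control replicate 1 (adjusted p = 0.0431). Pfas was also called higher with citraconate than in control with the granzyme genes left out and by voom on the recovered reads. Summed over the 6 genes the level was 518.9 ± 9.98 TPM in control, 535.4 ± 23.5 in OVA and 493.9 ± 23.3 in OVA plus citraconate.

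From IMP, one branch leads to GMP through IMP dehydrogenase (Impdh1, Impdh2) and GMP synthase (Gmps), and the other to AMP through adenylosuccinate synthase (Adss) and Adsl. The 2 IMP dehydrogenases catalyse the rate-limiting step toward guanine nucleotides. They went opposite ways with OVA peptide and between the peptide groups, while both were called lower with citraconate than in control. Impdh1 was at 110.4, 102.5 and 107.2 TPM in control, 114.5, 152.7 and 117.8 TPM in OVA and 51.9, 56.0 and 49.7 TPM in OVA plus citraconate. The 3 citraconate libraries lay far below the other 6, and OVA replicate 2 stood above the other OVA libraries. Impdh1 was at 40.9% of OVA with citraconate (-1.39 ± 0.10, adjusted p = 1.02e-05) and at 49.2% of control (-1.01 ± 0.10, adjusted p = 1.55e-05). Its 1.2-fold rise in OVA over control (0.25 ± 0.10, adjusted p = 0.0413) lay close to the threshold. Without OVA replicate 2 the log2 change was 0.12 with an adjusted p of 0.113, and the call was also lost without any 1 control library or without OVA plus citraconate replicate 1 or 3 (adjusted p 0.0503 to 0.116).

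Impdh2, the form known to be induced in dividing lymphocytes, was at 285.3, 258.9 and 281.4 TPM in control, 173.1, 161.5 and 178.2 TPM in OVA and 250.7, 214.1 and 254.4 TPM in OVA plus citraconate. OVA was the low group, without overlap with either of the others. It fell to 62.1% of control with OVA peptide (-0.68 ± 0.07, adjusted p = 1.44e-05) and with citraconate was 1.4-fold its OVA level (0.36 ± 0.07, adjusted p = 0.000323). At 87.1% of control the citraconate group just passed (adjusted p = 0.0361), but not without any of 4 libraries: control replicates 1 and 3, the first OVA replicate, and OVA plus citraconate replicate 2, whose removal left a log2 change of -0.12 (adjusted p 0.0510 to 0.117). The ratio of Impdh2 to Impdh1 was 2.53 to 2.63 in control, 1.06 to 1.51 in OVA and 3.82 to 5.12 in OVA plus citraconate.

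Adss was at 60.1, 56.6 and 66.7 TPM in control, 73.4, 65.4 and 68.2 TPM in OVA and 68.4, 67.1 and 86.2 TPM in OVA plus citraconate. The high value of OVA plus citraconate replicate 3 carried much of the 1.21-fold difference from control (adjusted p = 0.0413), which was lost without it (log2 change 0.15, adjusted p = 0.147) and without control replicate 1 or 2. Gmps, at 32.7 ± 1.78 TPM in control, 34.4 ± 2.83 in OVA and 38.6 ± 2.14 in OVA plus citraconate, was 1.18-fold above control with citraconate (adjusted p = 0.0208). That call was lost without control replicate 2, control replicate 3, or OVA plus citraconate replicate 1 or 3 (adjusted p 0.0541 to 0.0760). Neither gene passed in OVA against control (adjusted p 0.138 for Adss and 0.398 for Gmps) or between the 2 peptide groups (0.455 and 0.0876; Gmps passed without OVA replicate 3), though with the median of ratios both were called higher in OVA than in control.

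Purine salvage is carried out by Hprt, which returns hypoxanthine and guanine to nucleotides, Aprt, which does so for adenine, and Pnp, the phosphorylase that frees the bases from nucleosides. Hprt was at 376.6, 351.4 and 351.7 TPM in control, 266.7, 259.1 and 293.2 TPM in OVA and 261.9, 234.9 and 270.8 TPM in OVA plus citraconate. Both peptide groups lay below control and overlapped each other. Hprt fell to 75.9% of control with OVA peptide (-0.40 ± 0.07, adjusted p = 0.000347) and to 71.1% with citraconate as well (-0.49 ± 0.07, adjusted p = 0.000136). The 2 peptide groups did not differ by the test (adjusted p = 0.248), although Hprt was called lower with citraconate under the median of ratios.

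Aprt and Pnp rose instead. Aprt was at 149.4, 160.6 and 158.9 TPM in control, 202.3, 199.1 and 208.0 TPM in OVA and 163.2, 180.8 and 176.0 TPM in OVA plus citraconate, and Pnp was at 55.3, 54.8 and 54.4 TPM, 70.0, 78.6 and 74.5 TPM, and 64.4, 69.6 and 67.7 TPM. For both genes OVA was highest, OVA plus citraconate between, and no libraries overlapped. With OVA peptide Aprt was 1.30-fold higher (0.38 ± 0.05, adjusted p = 9.25e-05) and Pnp 1.36-fold (0.43 ± 0.06, adjusted p = 5.71e-05). Citraconate brought Aprt to 85.3% of OVA (-0.35 ± 0.05, adjusted p = 0.00371) and Pnp to 90.4% (-0.27 ± 0.06, adjusted p = 0.0481). The fall of Pnp did not pass in 7 of the 9 fits that left out 1 library, which were those without each control library, OVA replicates 2 and 3, and OVA plus citraconate replicates 1 and 3 (adjusted p 0.0605 to 0.163). Against control the citraconate group was 1.23-fold higher for Pnp (adjusted p = 0.00139) and 1.11-fold for Aprt (adjusted p = 0.0322), the latter not called without control replicate 1 or 3 or OVA plus citraconate replicate 2 or 3 (adjusted p 0.0521 to 0.116) or with the median of ratios. A near-identical gene, Pnp2, was listed at 1.75, 3.58 and 6.72 TPM in the 3 groups.

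**Figure D3:**
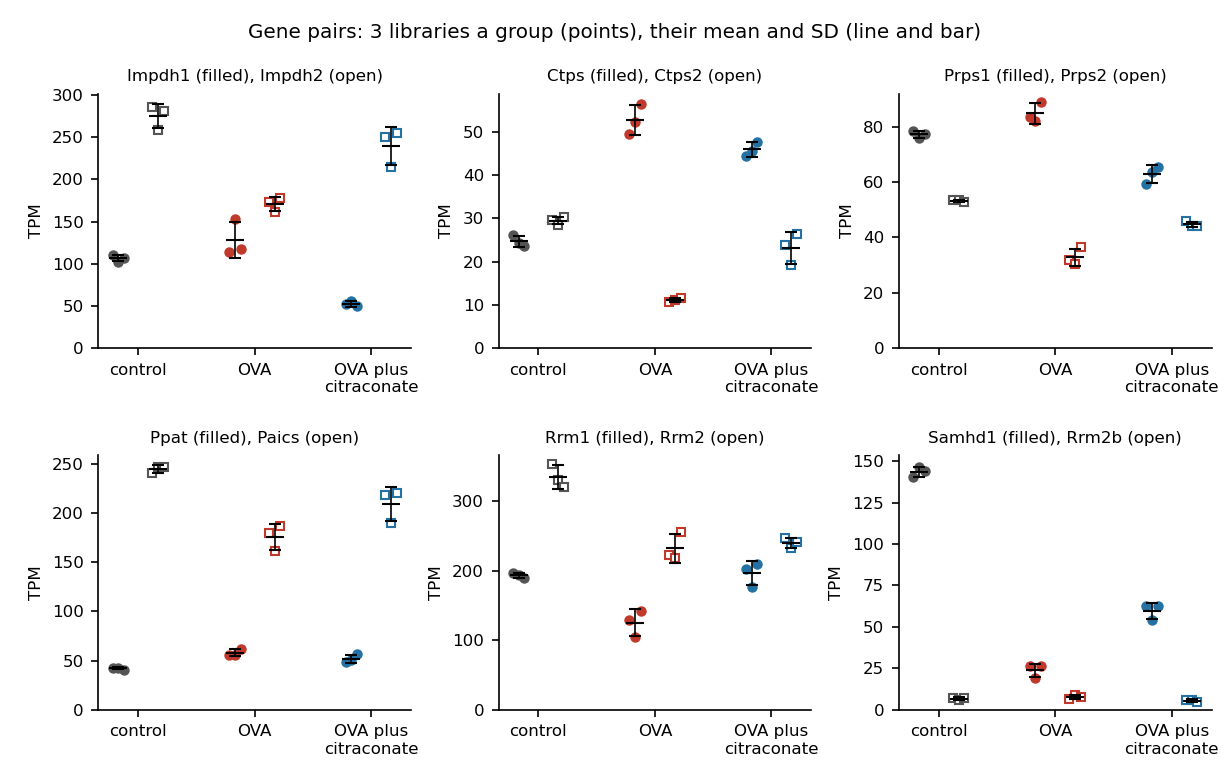
TPM of 6 gene pairs in the 3 groups, each panel starting at 0, with 3 libraries a group as points and their mean and SD as a line and bar. Impdh1 and Impdh2, Ctps and Ctps2, and Ppat and Paics moved in opposite directions between control and OVA, and Samhd1 is lowest in OVA at 23.9 TPM.

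Pyrimidine synthesis starts with the trifunctional enzyme Cad, passes through the mitochondrial enzyme Dhodh, and reaches uridine monophosphate with Umps, after which the CTP synthases Ctps and Ctps2 turn UTP into CTP. Ctps, the form that dividing lymphocytes are known to depend on, was at 26.2, 24.2 and 23.6 TPM in control, 49.5, 52.2 and 56.5 TPM in OVA and 44.4, 45.6 and 47.7 TPM in OVA plus citraconate. Both peptide groups lay well above control. The increase was 2.14-fold in OVA (1.07 ± 0.07, adjusted p = 4.02e-07) and 1.86-fold in OVA plus citraconate (0.87 ± 0.07, adjusted p = 2.85e-06). Between the 2 peptide groups Ctps was at 87.1% with citraconate (-0.32 ± 0.07, adjusted p = 0.0292), a call lost without either of OVA replicates 2 and 3, or OVA plus citraconate replicate 1 or 2 (adjusted p 0.0516 to 0.102).

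Ctps2 was at 29.6, 28.6 and 30.3 TPM in control, 10.8, 11.1 and 11.6 TPM in OVA and 23.8, 19.2 and 26.5 TPM in OVA plus citraconate. The OVA libraries lay far below the rest and close to each other. Ctps2 fell to 37.9% of control with OVA peptide (-1.33 ± 0.10, adjusted p = 1.43e-06), was 2.08-fold higher with citraconate than with OVA alone (0.86 ± 0.10, adjusted p = 3.96e-05), and was at 78.6% of control there (-0.35 ± 0.10, adjusted p = 0.0142). Without OVA plus citraconate replicate 2, the lowest of its group, that last change was -0.22. The ratio of Ctps to Ctps2 was 0.779 to 0.885 in control, 4.60 to 4.88 in OVA and 1.80 to 2.37 in OVA plus citraconate, so that the more abundant of the 2 transcripts differed between control and both peptide groups.

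Cad was at 60.3, 54.7 and 50.9 TPM in control, 75.7, 79.0 and 82.2 TPM in OVA and 57.7, 63.2 and 61.5 TPM in OVA plus citraconate. It rose 1.43-fold with OVA peptide (0.51 ± 0.07, adjusted p = 7.87e-05) and was at 77.0% of OVA with citraconate (-0.50 ± 0.07, adjusted p = 0.00109), where it overlapped control (adjusted p = 0.115, and 0.0313 without control replicate 1). Cad was also called above control there with the granzyme genes left out and by voom on the recovered reads. Umps rose 1.15-fold with OVA peptide (adjusted p = 0.0342; adjusted p 0.0704 to 0.105 without control replicate 2 or 3 or OVA replicate 1 or 3) and was 1.2-fold above control with citraconate (adjusted p = 0.0130). Dhodh was the lowest of the 35 transcripts in control, at 5.31 to 7.10 TPM, with 6.17 to 6.86 TPM in OVA and 4.58 to 5.55 TPM in OVA plus citraconate. It was lower with citraconate than with OVA alone (75.7%, -0.47 ± 0.12, adjusted p = 0.0259), a call lost without either of OVA replicates 1 and 2, or OVA plus citraconate replicate 1 or 2 (adjusted p 0.0649 to 0.0756). Against control the citraconate group did not pass for Dhodh (79.2%, adjusted p = 0.0573), but passed without control replicate 2 or OVA plus citraconate replicate 3 and with the median of ratios.

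Nucleoside mono- and diphosphate kinases bring nucleotides to the triphosphate level. Nme2 was the most abundant of the 35 transcripts in every group, at 470.7, 463.3 and 504.1 TPM in control, 787.3, 815.2 and 764.2 TPM in OVA and 454.9, 488.7 and 487.5 TPM in OVA plus citraconate. Nme1 was at 47.3, 47.2 and 44.8 TPM, 87.1, 90.2 and 88.8 TPM, and 46.2, 52.0 and 52.7 TPM. For both genes the 3 OVA libraries stood apart above the other 6, which overlapped. Nme1 rose 1.91-fold with OVA peptide (0.92 ± 0.06, adjusted p = 4.88e-07) and Nme2 1.65-fold (0.72 ± 0.05, adjusted p = 9.17e-07). With citraconate Nme1 was at 56.7% of OVA (-0.93 ± 0.06, adjusted p = 8.38e-06) and Nme2 at 60.5% (-0.85 ± 0.05, adjusted p = 7.40e-06).

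Nme2 alone made up 21.6% to 24.2% of the summed TPM of the 35 genes in OVA, beside 13.2% to 14.4% in control and 14.7% to 16.4% in OVA plus citraconate. A readthrough gene that spans Nme1 and Nme2, Gm20390, was listed at 239.1 ± 11.7 TPM in control, 358.3 ± 56.5 in OVA and 227.2 ± 9.92 in OVA plus citraconate, and how reads were divided among the 3 is not known. Cmpk1, the UMP/CMP kinase, was at 77.9, 85.6 and 81.3 TPM in control, 95.3, 97.3 and 96.8 TPM in OVA and 79.4, 79.9 and 79.7 TPM in OVA plus citraconate, again with OVA above the other 2 groups. The rise was 1.18-fold (0.24 ± 0.05, adjusted p = 0.00109) and the level with citraconate 82.6% of OVA (-0.40 ± 0.05, adjusted p = 0.000761). None of the 4 nucleotide kinases passed in OVA plus citraconate against control in the limma fit on TPM (adjusted p 0.134 to 0.981, with 0 of the 4 under an unadjusted p of 0.05 and 0 called by voom on the recovered reads), although Nme1 passed without OVA plus citraconate replicate 1 (1.08-fold over all libraries, adjusted p = 0.0276 without that library).

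Dtymk, the kinase that makes thymidine diphosphate for DNA, went against the other 3. It was at 46.2, 40.1 and 42.6 TPM in control, 34.8, 33.3 and 39.1 TPM in OVA and 44.2, 37.3 and 47.5 TPM in OVA plus citraconate. It fell to 83.1% of control with OVA peptide (adjusted p = 0.0334) and was 1.2-fold its OVA level with citraconate (adjusted p = 0.0425), where the libraries overlapped. Neither call held with the median of ratios. The first was also lost without control replicate 1 or 3 or OVA replicate 1 or 2 (adjusted p 0.0679 to 0.117), and the other without control replicate 3, either of OVA replicates 1 and 2, or OVA plus citraconate replicate 1 or 3 (adjusted p 0.0591 to 0.158).

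**Figure D4:**
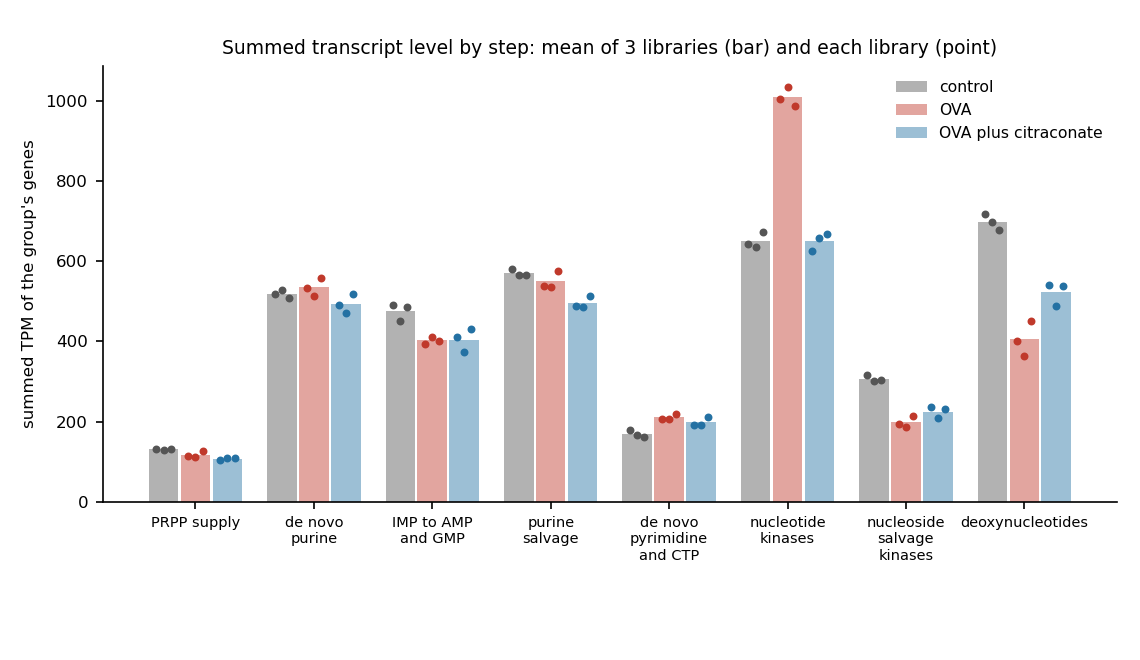
Summed TPM of the genes of each step, as the mean of 3 libraries (bar, from 0) and each library (point). The nucleotide kinases reach 988.9 to 1036 TPM in OVA beside 636.2 to 672.8 TPM in control. The deoxynucleotide genes, a sum that includes Samhd1, are lowest in OVA at 364.2 to 450.9 TPM.

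The salvage kinases, which trap nucleosides inside the cell by phosphorylating them, all fell with OVA peptide. These are Dck and Dguok for deoxynucleosides, Tk1 and Tk2 for thymidine, and Uck1 and Uck2 for uridine and cytidine. Their summed level was 300.7 to 316.7 TPM in control, 186.2 to 214.4 TPM in OVA and 208.1 to 236.3 TPM in OVA plus citraconate. The 6 falls of 6, with no overlap of libraries, stand beside 39.8% of all tested genes called lower in this comparison.

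Dck was at 79.0, 66.8 and 72.7 TPM in control, 30.1, 25.5 and 34.4 TPM in OVA and 51.7, 43.2 and 49.0 TPM in OVA plus citraconate. The 3 groups did not overlap, with OVA lowest. Dck fell to 41.2% of control with OVA peptide (-1.26 ± 0.11, adjusted p = 3.45e-06), was 1.60-fold its OVA level with citraconate (0.54 ± 0.11, adjusted p = 0.000539) and stayed at 65.9% of control there (adjusted p = 0.00105). Tk1, the cytosolic thymidine kinase of dividing cells, fell to 66.0% of control (adjusted p = 0.000235) and was 1.39-fold its OVA level with citraconate (0.33 ± 0.09, adjusted p = 0.00177), at 32.7 to 36.7 TPM beside 34.7 to 41.8 TPM in control (adjusted p = 0.276). Dguok, the mitochondrial counterpart of Dck, fell to 62.1% (adjusted p = 0.000178) and was 1.34-fold its OVA level with citraconate (0.26 ± 0.10, adjusted p = 0.00627). Its call below control in the citraconate group (83.0%, adjusted p = 0.0462) was lost without either of control replicates 2 and 3, either of OVA replicates 1 and 3, or OVA plus citraconate replicate 1 or 2 (adjusted p 0.0520 to 0.184), with a log2 change of -0.16 without control replicate 2.

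The other 3 salvage kinases were low in both peptide groups. Uck1 was at 44.5, 44.3 and 45.2 TPM in control, 25.8, 22.1 and 28.8 TPM in OVA and 28.3, 22.4 and 26.4 TPM in OVA plus citraconate. Tk2, the mitochondrial thymidine kinase, was at 15.8, 15.4 and 15.7 TPM, 8.79, 9.27 and 10.2 TPM, and 11.05, 8.73 and 11.4 TPM. In both genes the peptide groups overlapped each other and lay below every control library. Uck1 was at 57.3% of control in OVA (-0.79 ± 0.10, adjusted p = 6.36e-05) and at 57.5% with citraconate (-0.78 ± 0.10, adjusted p = 0.000119). The interval of the Uck1 difference between the peptide groups ran from -0.22 to 0.24 on the unshifted log2 scale. Tk2 was at 60.3% of control in OVA (adjusted p = 0.000173) and 66.5% with citraconate (adjusted p = 0.00104), and the peptide groups differed by the test only without OVA plus citraconate replicate 2 (adjusted p = 0.0446 without it, 0.324 with it). Uck2 was at 82.1% of control in OVA (adjusted p = 0.000786) and at 77.4% with citraconate (adjusted p = 0.000215), with no call between the peptide groups (adjusted p = 0.195) except lower with citraconate under the median of ratios.

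For the deoxynucleotide steps, the stretches before the RefSeq start sites of 4 genes that were called lower in OVA than in control are shown first, so that the short motifs counted further down can be seen in place. They are the ribonucleotide reductase subunits Rrm1 and Rrm2, thymidylate synthase (Tyms) and the thymidylate kinase Dtymk, which is counted here among the nucleotide kinases. All 4 hold at least 1 of the motifs. Samhd1, the deoxynucleotide gene that fell most, is not shown, and its window held none of the motifs searched. All are on mouse build GRCm38.p6 and written 5′ to 3′ on the gene's strand, without annotated exons: Rrm1 at chr7:102441445-102441694 (+), Rrm2 at chr12:24708004-24708240 (+), Tyms at chr5:30073626-30073875 (-) and Dtymk at chr1:93801935-93802184 (-). Capitals mark CCAAT, the box bound by NF-Y (ATTGG where it is read on the opposite strand), and CACGTG, the E-box bound by MYC and related factors.
Rrm1: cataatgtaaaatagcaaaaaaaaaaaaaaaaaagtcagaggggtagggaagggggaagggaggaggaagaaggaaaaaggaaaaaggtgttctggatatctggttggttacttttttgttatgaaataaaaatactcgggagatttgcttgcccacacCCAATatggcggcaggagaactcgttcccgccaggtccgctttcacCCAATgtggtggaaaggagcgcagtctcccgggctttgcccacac
Rrm2: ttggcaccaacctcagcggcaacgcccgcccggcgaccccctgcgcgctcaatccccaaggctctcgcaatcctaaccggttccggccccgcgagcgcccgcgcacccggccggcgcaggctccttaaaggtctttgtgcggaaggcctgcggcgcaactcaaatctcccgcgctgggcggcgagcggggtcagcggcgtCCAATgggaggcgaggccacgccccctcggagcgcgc
Tyms: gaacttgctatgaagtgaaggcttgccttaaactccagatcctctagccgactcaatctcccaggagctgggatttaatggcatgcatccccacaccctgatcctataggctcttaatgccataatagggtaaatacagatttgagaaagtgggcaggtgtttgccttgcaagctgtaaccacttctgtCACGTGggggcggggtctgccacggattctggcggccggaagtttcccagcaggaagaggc
Dtymk: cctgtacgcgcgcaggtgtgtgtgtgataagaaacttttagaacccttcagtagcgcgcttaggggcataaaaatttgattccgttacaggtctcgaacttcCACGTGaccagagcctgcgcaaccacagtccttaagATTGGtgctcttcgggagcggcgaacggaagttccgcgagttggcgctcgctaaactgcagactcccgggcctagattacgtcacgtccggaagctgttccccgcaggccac
In Rrm1 the CCAAT boxes begin 91 and 45 bases before the start and in Rrm2 the box begins 50 bases before it. The Rrm2 stretch shown ends 13 bases before the start. The CACGTG of Tyms begins 61 bases and that of Dtymk 148 bases before the start.

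Samhd1, the triphosphohydrolase that breaks deoxynucleotides down, had the largest change of the 35 genes. It was at 140.3, 146.2 and 144.0 TPM in control, 26.1, 19.4 and 26.2 TPM in OVA and 62.6, 54.0 and 62.4 TPM in OVA plus citraconate. The 3 groups were far apart, with OVA lowest. It fell to 16.7% of control with OVA peptide (-2.55 ± 0.11, adjusted p = 3.41e-08), was 2.5-fold its OVA level with citraconate (1.17 ± 0.11, adjusted p = 1.32e-05) and remained at 41.6% of control (-1.25 ± 0.11, adjusted p = 5.99e-06). Each of these calls held in all 18 alternative settings.

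Ribonucleotide reductase pairs the large subunit Rrm1 with the small subunit Rrm2, or with Rrm2b, the small subunit used outside S phase. Rrm1 was at 196.6, 194.4 and 188.9 TPM in control, 129.0, 104.6 and 142.5 TPM in OVA and 203.2, 176.5 and 209.2 TPM in OVA plus citraconate. OVA was the low group, and OVA plus citraconate overlapped control. Rrm1 fell to 64.8% of control with OVA peptide (-0.63 ± 0.10, adjusted p = 0.000286) and was 1.57-fold its OVA level with citraconate (0.53 ± 0.10, adjusted p = 0.000422), where the interval of its unshifted difference from control ran from -0.21 to 0.25.

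Rrm2 fell with OVA peptide like Rrm1 but did not share its difference with citraconate. It was at 353.8, 329.9 and 319.8 TPM in control, 222.8, 217.6 and 256.3 TPM in OVA and 246.6, 232.7 and 242.0 TPM in OVA plus citraconate. Both peptide groups lay below control and overlapped each other. Rrm2 was at 69.4% of control in OVA (-0.53 ± 0.07, adjusted p = 4.93e-05) and 71.9% with citraconate (-0.47 ± 0.07, adjusted p = 0.000177), and the peptide groups did not differ by the test (1.04-fold, adjusted p = 0.516). The ratio of Rrm2 to Rrm1 was 1.69 to 1.80 in control, 1.73 to 2.08 in OVA and 1.16 to 1.32 in OVA plus citraconate, where every library lay below the other 6. That of Rrm2 to Samhd1 was 2.22 to 2.52 in control, 8.53 to 11.2 in OVA and 3.88 to 4.31 in OVA plus citraconate.

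Rrm2b was a minor transcript, at 7.33, 5.81 and 7.15 TPM in control, 6.38, 8.87 and 7.68 TPM in OVA and 6.05, 5.87 and 4.42 TPM in OVA plus citraconate. It did not pass in either comparison with control (adjusted p 0.369 for OVA and 0.132 with citraconate) and was at 71.3% of OVA with citraconate (-0.55 ± 0.15, adjusted p = 0.0290). That call was lost without either of OVA replicates 2 and 3 and without OVA plus citraconate replicate 3 (adjusted p 0.0605 to 0.113). Tyms, which makes thymidylate, was at 19.3 to 21.0 TPM in control, 13.7 to 18.3 TPM in OVA and 18.5 to 23.0 TPM in OVA plus citraconate. It fell to 79.7% of control with OVA peptide (adjusted p = 0.0223; 0.0503 to 0.0765 without control replicate 1, control replicate 2 or OVA replicate 2). With citraconate it was 1.30-fold its OVA level (adjusted p = 0.0155), not called with the median of ratios or without OVA replicate 2 or OVA plus citraconate replicate 1 (adjusted p 0.0509 to 0.0643).

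Genes of DNA replication and division fell with OVA peptide, as did 4 of the 5 deoxynucleotide genes. With citraconate the 2 lists were less alike. Of the 5 deoxynucleotide genes, 3 were called higher and 1 lower than with OVA alone, and 2 were called lower than in control. Samhd1 was among the 3 and among the 2. All 12 genes of an S phase and proliferation list were called lower in OVA than in control (median log2 change -1.01), 9 of 12 were called higher with citraconate than with OVA alone and 0 lower (median 0.51 unshifted), and 11 of 12 were lower with citraconate than in control (median -0.56). The shares of all tested genes called in those directions were 39.8%, 37.8% and 26.3%. Median-of-ratios scaling gave 11, 8 and 11 of 12, and Gins2, whose libraries overlapped (adjusted p = 0.0424), was the gene lost in OVA against control. Their summed level was 2703 to 2978 TPM in control, 1165 to 1506 TPM in OVA and 1745 to 2048 TPM in OVA plus citraconate. In OVA against control the changes were largest for the replication licensing factor Cdt1, topoisomerase Top2a and the proliferation marker Mki67, at 99.2, 302.1 and 299.0 TPM in control, 31.3, 101.0 and 107.7 TPM in OVA and 44.4, 194.0 and 201.2 TPM in OVA plus citraconate. OVA replicate 2 was the lowest library both for this list and for the deoxynucleotide sum. The part of these genes in the nucleotide results was not tested.

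Among known regulators of nucleotide genes, Myc was at 652.5, 645.4 and 658.3 TPM in control, 141.6, 129.1 and 185.9 TPM in OVA and 558.0, 534.5 and 551.6 TPM in OVA plus citraconate. It fell with OVA peptide to 23.4% of control (-2.11 ± 0.11, adjusted p = 1.06e-07) and was 3.60-fold its OVA level with citraconate (1.73 ± 0.11, adjusted p = 5.32e-06). Against control its level with citraconate did not pass (84.0%, adjusted p = 0.0659), although all 3 citraconate libraries lay below all 3 control libraries and median-of-ratios scaling called it lower. E2f1, a driver of S phase genes, fell from 42.5 to 23.5 TPM with OVA peptide (adjusted p = 3.64e-05) and was at 31.7 TPM with citraconate, higher than with OVA alone (adjusted p = 0.00515). Atf4, the stress factor known to induce the folate enzyme Mthfd2, rose from 452.7 to 624.5 TPM (adjusted p = 3.41e-06) and was at 423.1 TPM with citraconate, lower than with OVA alone (adjusted p = 7.73e-06). Its level with citraconate did not pass against control (93.5%, adjusted p = 0.0591), with no overlap of libraries and a call as lower under the median of ratios.

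Promoter windows of 300 bases (250 before to 50 after the RefSeq start, GRCm38.p6, a build older than the GRCm39 named for the processing) were at hand for 32 of the 35 genes. CACGTG, searched on both strands, occurred in 6 of the 32 (18.8%), beside 8.09% of 27025 genes with a window: Paics, Atic, Impdh2, Dtymk, Nme1 and Tyms. In OVA against control Paics, Impdh2, Atic, Dtymk and Tyms were called lower and Nme1 higher, beside 39.8% of all tested genes called lower. The calls of Atic and Dtymk were lost with the median of ratios. Samhd1, Ctps2 and Dck, which had the largest falls, held no CACGTG. A link between the motif and these changes was not tested. CCAAT, also on both strands, occurred in 11 of 32 (34.4%), beside 41.1% of genes. TTTCCCGC, a form of the E2F site, was present in the windows of Prps2 and Ppat (6.25%, beside 1.24% of genes), TTTGGCGC in 0 (0.585% of genes) and the ATF4 form TGATGCAA in 0 (1.03% of genes). These matches describe letters in the windows and say nothing of binding.

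Another 50 genes of nucleotide metabolism were listed as the pathway around the 35, of which 45 were tested. In OVA against control 20 were called higher and 13 lower, in OVA plus citraconate against OVA 14 and 14, and in OVA plus citraconate against control 20 and 9. The called shares of 73.3%, 62.2% and 64.4% were near those of all tested genes (71.9%, 59.0% and 59.4%). The folate enzymes that feed one-carbon units into purines and thymidylate summed to 517.5 to 559.1 TPM in control, 831.6 to 909.6 TPM in OVA and 566.8 to 594.9 TPM in OVA plus citraconate. Of the 6, 4 rose and 2 fell with OVA peptide, and 4 were lower with citraconate than with OVA alone. Mthfd2, of the mitochondrial folate cycle, was at 62.0, 59.4 and 59.8 TPM in control, 163.9, 176.6 and 171.5 TPM in OVA and 104.8, 120.0 and 114.4 TPM in OVA plus citraconate. The 3 groups did not overlap, and all differences passed (adjusted p = 2.24e-08 for OVA against control, 2.89e-05 between the peptide groups and 9.93e-07 for citraconate against control). Shmt2, which provides the mitochondrial one-carbon unit, rose from 239.2 to 447.5 TPM with OVA peptide (adjusted p = 1.01e-06) and was at 229.0 TPM with citraconate (adjusted p = 6.45e-06 against OVA). Mthfd1, the cytosolic folate enzyme, was at 81.4, 128.2 and 107.9 TPM in the 3 groups, with all 3 differences called.

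Of 14 other nucleotide kinase and uracil salvage genes, 5 were called higher and 5 lower in OVA than in control, or 71.4% beside 71.9% of all tested genes. Cmpk2, a mitochondrial UMP/CMP kinase induced by interferon, fell from 6.45 to 0.312 TPM with OVA peptide (adjusted p = 4.23e-07) and was at 1.07 TPM with citraconate (adjusted p = 0.00539 against OVA). Its levels in the peptide groups rest on few reads, 4 to 9 a library in OVA and 14 to 25 in OVA plus citraconate. Ak4, a mitochondrial adenylate kinase, fell from 28.4 to 7.15 TPM (adjusted p = 3.36e-06) and was at 10.2 TPM with citraconate (adjusted p = 0.0290 against OVA). Nme6 went the other way, from 6.21 to 19.5 TPM with OVA peptide (adjusted p = 1.82e-05). With citraconate Nme6 was at 6.66 TPM (adjusted p = 7.00e-05 against OVA). The more abundant Nme1 and Nme2 also rose with OVA peptide and were lower with citraconate. Nme4 and Nme7 fell instead, to 40.8% and 40.4% of control in OVA (adjusted p = 2.41e-05 and 9.59e-06). Nme3 did not pass in that comparison (adjusted p = 0.747). Summed over the 14 genes the levels were 532.1 to 536.3 TPM in control, 556.7 to 586.6 TPM in OVA and 584.8 to 608.0 TPM in OVA plus citraconate.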

How the data were processed

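RNA of 9 libraries was extracted with the RNeasy Mini Kit and sequenced on an Illumina NextSeq instrument, per the labels' protocols. The submitters' processing notes name Trim Galore 0.5.0, Salmon and mouse build GRCm39, with no annotation stated. The authors deposited 1 table, titled as FPKM, whose columns each sum to 1000000, so its values were treated as TPM. Whole reads were recovered for 16734 of 16734 genes above 0 in at least 2 libraries (100%, tolerance 0.0001 reads or 3e-08 relative) and used for depth and for an added voom fit, chosen after seeing the data. Differences were fitted with limma 3.58.1 in R 4.3.3 on log2(TPM + 1), with a trended prior, all 9 libraries, and a floor of 1 TPM on the mean of the highest group. P-values were Benjamini-Hochberg adjusted over the 11971 genes in each of 3 comparisons. The fit was tested on simulated data. The rule for the 35 members uses symbols alone, but the members, the 50 other nucleotide genes and the marker, S phase and regulator lists were all chosen with earlier results of these data known. All 35 members are named, with values in every library for up to 3 genes a step, those with the largest changes, and for members that went against their step. Up to 3 called genes with the largest changes are named for each other nucleotide, S phase and regulator list. Cell type markers, and Gins2, Adk, Uckl1, Nme3, Nme4 and Nme7, were named after their values were seen. The closing section gives 17 other settings of pseudocount, filter, scaling, block and libraries. Promoter sequence is RefSeq's, on GRCm38.p6.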

Additional observations from a re-analysis of the deposited data

How the results depend on the processing

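No direction of a called change reversed in 17 other settings (pseudocount, filter, scaling, granzyme genes left out, replicate block, fewer libraries, each library left out) or in voom on recovered reads. Of the 35 genes, 26 kept their side of the threshold in all 18 settings for OVA against control, 22 for OVA plus citraconate against OVA and 23 for OVA plus citraconate against control. Of the called genes these were 24 of 30, 17 of 24 and 16 of 23. Of the counts called higher or lower, the one that moved by over 1.5 times was that of genes higher with citraconate than in control: 8 as reported, 5 with median-of-ratios scaling, and 4 to 8 with 1 library left out, the 4 without OVA plus citraconate replicate 3. The genes that did not pass in OVA against control rose from 5 to 10 without control replicate 1 or 2 and to 9 without control replicate 3 or OVA replicate 1 or 2, and those in OVA plus citraconate against OVA from 11 to 17 without OVA replicate 2. The cause was not tested. Same-numbered libraries of different groups had correlations of deviations of -0.0121 to 0.3044 over 9 pairs, so the numbers were not taken as pairs. With the replicate number as a block, OVA against control had 12 genes higher and 16 lower, with Prps1 (adjusted p = 0.0536) and Atic (adjusted p = 0.0511) no longer passing. The other comparisons kept their counts (11 and 13, 8 and 15). With voom the counts were 14 and 15, 11 and 14, and 11 and 14. Depth was 163 reads or more for each of the 35 genes in each library.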

Other observations

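Among genes that take nucleosides apart, Upp1, the phosphorylase that splits uridine, was at 7.58, 6.91 and 7.14 TPM in control, 34.99, 20.9 and 50.9 TPM in OVA and 56.2, 57.1 and 51.3 TPM in OVA plus citraconate. Every peptide library lay above every control library, 4.93-fold by the means for OVA (limma adjusted p = 2.41e-05) and 7.61-fold with citraconate (adjusted p = 6.22e-06). The 1.54-fold difference between the peptide groups (adjusted p = 0.0281) did not pass with the median of ratios. Ada, adenosine deaminase, went down in both steps, at 18.3, 14.3 and 15.6 TPM in control, 6.27, 8.34 and 5.13 TPM in OVA and 2.41, 2.78 and 1.31 TPM in OVA plus citraconate (adjusted p = 0.000395 for OVA against control and 0.000444 between the peptide groups). Gmpr, which turns GMP back into IMP, was listed at 0 in all 3 control libraries and at 0.982 to 1.82 TPM in the 6 peptide libraries. These values rest on 6 to 11 reads a library, and Gmpr passed the filter on low values only through the peptide groups. Of 14 tested breakdown genes, 5, Gmpr among them, were called higher and 4 lower in OVA than in control, or 64.3% beside 71.9% of all tested genes.

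Slc28a2, a concentrative nucleoside transporter, fell from 36.5 ± 1.2 TPM (SD, n = 3) in control to 12.2 ± 2.94 in OVA (adjusted p = 5.33e-06, limma) and was at 19.7 ± 1.64 with citraconate (adjusted p = 0.00244 against OVA). Slc29a2, an equilibrative transporter, was at 1.32 ± 0.602, 5.08 ± 0.483 and 1.89 ± 0.252 TPM, higher in OVA than in control (adjusted p = 4.71e-05) and lower with citraconate than with OVA alone (adjusted p = 0.000574). Slc29a3, the lysosomal member, was at 9.35 ± 0.564, 15.99 ± 4.94 and 19.3 ± 1.54 TPM, with both peptide groups above control by the test (adjusted p = 0.00685 and 0.00109). Among enzymes that clean the nucleotide pool, Dut, which removes dUTP, fell from 233.2 to 156.2 TPM with OVA peptide (adjusted p = 0.000110) and was at 163.5 TPM with citraconate. Nudt1, which removes oxidised purine nucleotides, was at 22.2, 21.3 and 30.3 TPM, higher with citraconate than with OVA alone (adjusted p = 0.0124). Itpa, which removes inosine triphosphate, rose from 44.0 to 55.1 TPM with OVA peptide (adjusted p = 0.00493) and was at 52.4 TPM with citraconate.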
